A study of Mus musculus with 8 samples.

Results

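A set of 10 genes of antioxidant and metal defence, listed by symbol, were followed in single-cell transcriptomes of the mouse line SN4741. The set was chosen with earlier results of these data known. They are Hmox1, Nqo1, Gclc, Gclm, Slc7a11, Gsr, Txnrd1 and Srxn1, which are known targets of the transcription factor NRF2, and the metallothionein genes Mt1 and Mt2. All 10 symbols were found among the 31053 genes of the count matrices. SN4741 is a wild-type (WT) mouse neural precursor line that carries a heat-sensitive viral T antigen driven by the tyrosine hydroxylase promoter, is described as clonal and has an unstable karyotype, so it stands for 1 line and not for a tissue. In all, 4 libraries came from cells incubated at 37 °C in 10% serum, and 4 came from cells moved to 39 °C in 0.5% serum for 48 hours, the treatment meant to start differentiation. Temperature and serum changed together, so their effects cannot be told apart, and every comparison named here by temperature covers both.

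NRF2, encoded by Nfe2l2, is held at a low level in resting cells by KEAP1, which hands it to a CUL3 and RBX1 ligase for breakdown. Oxidants and electrophiles loosen that hold, and NRF2 then pairs with a small MAF protein on antioxidant response elements, where BACH1 can act as a repressor. Metallothioneins bind zinc and copper, and their genes respond to metals through MTF1 on metal response elements, to oxidants and to glucocorticoids.

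The promoters of Mt2, Mt1 and Srxn1 are shown because Mt1 and Mt2 are the pair whose counts went together most from cell to cell and because Srxn1 and Mt2 fell most among the 10 genes. Each line gives the 250 bases before a RefSeq start (GRCm38.p6), 5′ to 3′ on the strand of the gene. Capitals mark matches, on either strand, to antioxidant response elements (TGACNNNGC, or its palindromic form TGANTCAGC) and to a loose pattern for the metal response element (TGCNCNC). N is any base, and each name below means a match to these letters.
Mt2, chr8:94172368-94172617, plus strand: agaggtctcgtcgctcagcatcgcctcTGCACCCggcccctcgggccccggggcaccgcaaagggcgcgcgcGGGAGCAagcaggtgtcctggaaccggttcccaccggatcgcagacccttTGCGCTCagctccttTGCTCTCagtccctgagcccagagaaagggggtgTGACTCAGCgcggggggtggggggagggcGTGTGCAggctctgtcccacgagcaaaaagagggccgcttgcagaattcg
Mt1, chr8:94178839-94179088, plus strand: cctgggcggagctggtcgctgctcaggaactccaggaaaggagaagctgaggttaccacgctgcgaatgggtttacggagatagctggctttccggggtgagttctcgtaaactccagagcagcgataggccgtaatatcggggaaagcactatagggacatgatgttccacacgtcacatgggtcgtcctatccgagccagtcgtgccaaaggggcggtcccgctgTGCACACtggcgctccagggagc
Srxn1, chr2:152105274-152105523, plus strand: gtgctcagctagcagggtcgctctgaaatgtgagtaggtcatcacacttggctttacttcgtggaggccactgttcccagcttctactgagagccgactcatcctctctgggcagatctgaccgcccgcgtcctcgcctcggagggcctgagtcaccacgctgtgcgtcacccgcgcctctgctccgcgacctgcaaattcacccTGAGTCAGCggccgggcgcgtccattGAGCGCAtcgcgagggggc

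The Mt2 window held 5 matches to the loose metal response pattern. From -79 to -71 it held the sequence TGACTCAGC, which matches both forms of the antioxidant response element. The Mt1 window held 1 match to the metal response pattern and none to an antioxidant response element. The annotation also places Mt1 starts downstream of this window, and the bases between were not searched, so matches there would be missed. The Srxn1 window held TGAGTCAGC from -45 to -37 and 1 metal response element. Promoters were in the RefSeq table for 7 of the 10 genes. Those of Gclm and of 1 of 3 Txnrd1 starts also matched an antioxidant response element, and in Gclm that match shared 3 bases with a metal response element. Over 32851 promoter windows of the same length, 10.7% matched either antioxidant form, 1.02% the palindromic form and 44.4% the loose metal response pattern. A match to that pattern by itself thus sets a gene little apart. A match is a description of letters and not a shown site.

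Of the 10 genes, 5 lie on chromosome 8 of GRCm38. These are Gsr (33652523 to 33698163, plus strand), Hmox1 (75093621 to 75100589, plus), Mt2 (94172664 to 94173568, plus), Mt1 (94179082 to 94180327, plus) and Nqo1 (107388225 to 107403206, minus). Mt2 ends 5513 bases before Mt1 starts. Gclm (chromosome 3, 122245557 to 122270732, plus) and Slc7a11 (chromosome 3, 49892526 to 50443614, minus) share a chromosome, and Gclc (chromosome 9, 77754535 to 77794485, plus), Txnrd1 (chromosome 10, 82833951 to 82897712, plus) and Srxn1 (chromosome 2, 152105516 to 152111376, plus) lie apart. Because the karyotype of the line is unstable, chromosome 8 was examined as a whole, and the median log2 fold change of its 862 tested genes between the temperatures was 0.01. In the last 500 bases of their transcripts, where the 3′ kit reads, none of the 10 genes shared a run of 50 bases with another gene. Genes on the same strand overlap Txnrd1 (Eid3), Gclm, Slc7a11 and Gsr, and Mt2 has an antisense neighbour, so that a small part of their reads may have been assigned differently.

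The 8 libraries held 18351 kept cells of 19125 and 17166686 to 29633818 UMIs (unique molecular identifiers, 1 for each captured molecule of RNA) each, and counts were summed over the cells of a library, because cells are not replicates. On average 24.1% ± 3.41 of the cells of a 37 °C library and 84.3% ± 1.22 of those of a 39 °C library fell in G1 (SD over 4 libraries each), and the 10 genes were therefore also compared within G1 cells and within S and G2M cells. The median mitochondrial share ran from 7.55% to 7.89% at 37 °C and from 8.04% to 8.85% at 39 °C, and its part in the results was not tested. Of 6 neural precursor markers, 4 passed the filter on low counts, 2 rose (Sox2, a precursor transcription factor, from 55.4 to 76.5 CPM, and Msi1, with 12 UMIs in all, not called in DESeq2, with no cell filter, or without 37 °C replicate 1 or 4 or 39 °C replicate 2 or 4, adjusted p from 0.0581 to 0.101), 1 fell (Nes, the intermediate filament nestin, from 467 to 108 CPM) and Vim did not pass the test, while Pax6 and Fabp7 did not reach the filter. The 5 fibroblast markers summed to 1656 to 1733 CPM at 37 °C and to 750.1 to 783 CPM at 39 °C, with 0 of 4 tested rising and 2 (Col1a1 and Col1a2) falling. Neuron markers (0 of 3 tested rose, 2 fell) summed to 62.9 to 67.9 and 37.8 to 39.6 CPM. In G1 cells 1 of 2 tested, Map2, fell and Tubb3 did not pass. Tubb3 was called higher in G1 cells with no filter on low counts (log2 fold change 0.39, adjusted p = 0.0360). The same held with a mitochondrial limit of 10% (0.51, adjusted p = 0.0189) and without 37 °C replicate 4 (0.53, adjusted p = 0.0264). Astrocyte markers (0 of 3 rose, and 1, Slc1a3, fell, but not without 37 °C replicate 3 or 39 °C replicate 4) summed to 14.3 to 21.2 and 14.8 to 16.9 CPM. The summed levels of oligodendrocyte markers (2.97 to 3.52 and 4.70 to 5.45 CPM, 1 of 2 tested rose), myeloid markers (0.844 to 1.37 and 1.02 to 2.27 CPM, 0 of 4 called) and endothelial markers (0.574 to 1.02 and 0.834 to 1.17 CPM, 1 of 2 rose) were low, with Mog, Olig1, Olig2, C1qa, Cdh5 and Cldn5 at 0 in every library. Over all genes tested in all kept cells, 31.5% rose and 30.5% fell. Whether these markers had a part in the results was not tested.

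The first comparison asked how the defence genes differed between proliferating cells at 37 °C and cells at 39 °C. They did not go one way. Slc7a11, Gclc and Hmox1 were higher at 39 °C, by 2.91, 2.09 and 1.85 times, and Mt2, Srxn1, Nqo1, Gsr, Mt1, Txnrd1 and Gclm were lower. All 10 genes passed an adjusted p of 0.05 in edgeR's quasi-likelihood test (3 higher, 7 lower), against 62.0% of the 15810 genes tested (31.5% higher, 30.5% lower), so that passing was common here. Their median log2 fold change was -0.27, beside 0.02 over all tested genes. The libraries of both temperatures did not overlap for 9 of the 10 genes, against 56.7% of all tested genes, and 1 gene, Slc7a11, passed the stricter limit the study set for its bulk data (an adjusted p below 0.01 together with a log2 change beyond 1.5 either way), against 5.83%. Levels below are counts per 1000000 counts of tested genes (CPM), scaled between libraries by TMM factors, and are compared between libraries and not between genes.

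**Figure D1:**
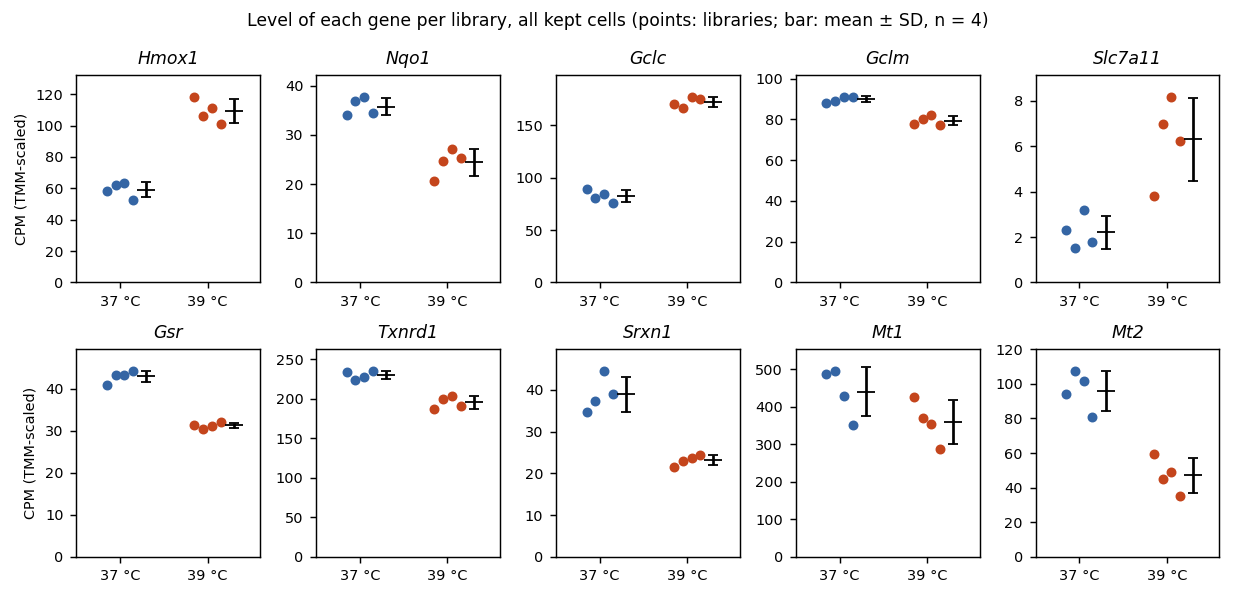
Level of each of the 10 genes in CPM (linear vertical axes from 0, a scale for each gene) in the 4 libraries at 37 °C (blue) and the 4 at 39 °C (red), all kept cells; points are libraries in replicate order and the black bar is the mean ± SD. The points of Hmox1, Gclc and Slc7a11 lie higher at 39 °C with no overlap, those of Mt2, Srxn1, Nqo1, Gsr, Txnrd1 and Gclm lie lower with no overlap, and those of Mt1 overlap.

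Glutathione is made from cysteine that enters through the exchanger encoded by Slc7a11, by the ligase whose catalytic and modifier subunits are Gclc and Gclm, and it is kept reduced by Gsr. For Slc7a11, replicates 1 to 4 held 2.33, 1.51, 3.19 and 1.79 CPM at 37 °C and 3.80, 6.97, 8.18 and 6.24 CPM at 39 °C. Every library at 39 °C lay above every library at 37 °C, with replicate 1 the lowest of the 39 °C group, although the gene had only 39 to 231 UMIs per library. The means were 2.21 ± 0.739 and 6.30 ± 1.85 CPM (SD, n = 4 each), a log2 fold change of 1.54 (SE 0.20, adjusted p = 1.52e-06). For Gclc, replicates 1 to 4 held 89.3, 80.8, 84.4 and 75.4 CPM at 37 °C and 170.4, 167, 177 and 175 CPM at 39 °C. The groups stood far apart relative to the spread within each, and the log2 fold change was 1.06 (SE 0.05, adjusted p = 1.33e-12). Its partner subunit Gclm went the other way by a small step, from 88.3 to 91.1 CPM at 37 °C to 77.4 to 82.4 CPM at 39 °C (log2 fold change -0.18, SE 0.04, adjusted p = 0.00128). Both groups of Gclm were tight and did not overlap, so that the genes of the 2 subunits changed in opposite directions. Gsr, the glutathione reductase, lay between 41.0 and 44.2 CPM at 37 °C and between 30.5 and 32.0 CPM at 39 °C (log2 fold change -0.46, SE 0.05, adjusted p = 4.71e-08).

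Txnrd1 encodes the cytosolic thioredoxin reductase, and Srxn1 encodes sulfiredoxin, which restores over-oxidised peroxiredoxins. For Srxn1, replicates 1 to 4 held 34.7, 37.4, 44.5 and 39.0 CPM at 37 °C and 21.6, 23.0, 23.6 and 24.3 CPM at 39 °C. The highest library at 39 °C was well under the lowest at 37 °C, and the log2 fold change was -0.75 (SE 0.07, adjusted p = 9.00e-09). Txnrd1 ranged from 224 to 235 CPM at 37 °C and from 187 to 204 CPM at 39 °C, a smaller step without overlap (log2 fold change -0.24, SE 0.05, adjusted p = 1.94e-04).

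Hmox1 encodes haem oxygenase, which opens the haem ring and frees its iron, and Nqo1 encodes a quinone reductase that is widely used as a readout of NRF2. For Hmox1, replicates 1 to 4 held 58.0, 62.1, 63.6 and 52.7 CPM at 37 °C and 118, 106, 111 and 101 CPM at 39 °C. The lowest 39 °C library exceeded the highest 37 °C library by a wide margin, and the log2 fold change was 0.88 (SE 0.06, adjusted p = 1.74e-10). For Nqo1, replicates 1 to 4 held 34.1, 36.8, 37.8 and 34.4 CPM at 37 °C and 20.6, 24.7, 27.2 and 25.3 CPM at 39 °C. Nqo1 was thus lower in every 39 °C library while Hmox1 was higher in every one, and its log2 fold change was -0.54 (SE 0.07, adjusted p = 6.64e-07).

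For Mt2, replicates 1 to 4 held 94.1, 107, 101 and 80.6 CPM at 37 °C and 59.2, 44.97, 48.8 and 35.1 CPM at 39 °C. The fall was clear of the spread, with a log2 fold change of -1.04 (SE 0.11, adjusted p = 7.15e-08), the largest fall of the 10 genes. For its neighbour Mt1, replicates 1 to 4 held 487, 495, 428 and 351 CPM at 37 °C and 426, 370.0, 355 and 286 CPM at 39 °C. Here the groups overlapped, since replicates 1, 2 and 3 at 39 °C exceeded replicate 4 at 37 °C, and replicate 4 was the lowest library of both groups for both genes. The log2 fold change of Mt1 was -0.30 (SE 0.10, adjusted p = 0.0177), and the call was lost without 37 °C replicate 2 (-0.23, adjusted p = 0.0697), without 39 °C replicate 4 (-0.21, adjusted p = 0.0712) and in DESeq2 (-0.31, adjusted p = 0.0790).

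Since most cells at 39 °C were in G1 and most at 37 °C were not, the same test was run within each class. In G1 cells 8 of the 10 genes passed (3 higher, 5 lower), against 47.1% of 14712 genes (24.8% higher, 22.4% lower). In S and G2M cells 7 passed (3 higher, 4 lower), against 44.3% of 14760 genes (20.6% higher, 23.8% lower). Slc7a11, Gclc and Hmox1 were higher and Nqo1, Srxn1 and Mt2 were lower at 39 °C in both classes, although Nqo1 in S and G2M cells (-0.28, adjusted p = 0.0125) had adjusted p-values of 0.0811 with library totals and 0.0657 when cells above a mitochondrial share of 10% were dropped. In S and G2M cells the libraries of both temperatures overlapped for Slc7a11 and for Nqo1. Replicate 1 at 39 °C lay within the 37 °C range for Slc7a11, and replicate 3 at 39 °C did so for Nqo1. The 39 °C libraries held only 144 (replicate 1) to 610 S and G2M cells each. Gclc went from 105 ± 7.29 to 183 ± 4.71 CPM (SD, n = 4) in G1 cells (log2 fold change 0.81, adjusted p = 4.02e-11) and from 77.8 ± 6.28 to 127 ± 10.7 CPM in S and G2M cells (0.72, adjusted p = 9.92e-10), without overlap in either. Mt2 went from 84.9 ± 11.5 to 44.2 ± 9.73 CPM in G1 cells (-0.95, adjusted p = 2.19e-07) and from 100.5 ± 11.97 to 66.5 ± 14.3 CPM in S and G2M cells (-0.62, adjusted p = 1.05e-05), again without overlap. Srxn1 fell in both as well (-0.71, adjusted p = 3.81e-07, and -0.52, adjusted p = 1.01e-04).

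Other genes changed in 1 class and did not pass in the other. Txnrd1 had a log2 fold change of -0.27 in S and G2M cells (adjusted p = 3.09e-04) and of -0.05 in G1 cells (adjusted p = 0.525), where its sign turned without 37 °C replicate 4. Gsr fell in G1 cells (-0.26, adjusted p = 0.00249) and stood at 45.9 ± 0.895 and 47.3 ± 4.35 CPM in S and G2M cells (0.03, SE 0.07, adjusted p = 0.766). Mt1 fell in G1 cells (-0.31, adjusted p = 0.00848, and 0.0598 in DESeq2), with a log2 fold change of -0.14 in S and G2M cells (adjusted p = 0.257), where it passed without 37 °C replicate 4 (-0.25, adjusted p = 0.0159) and without 39 °C replicate 1 (-0.23, adjusted p = 0.0441). Gclm passed in neither class (-0.09, adjusted p = 0.188, and -0.12, adjusted p = 0.130, the latter -0.22 with an adjusted p of 0.00807 without 39 °C replicate 3). For Slc7a11 in G1 cells, replicates 1 to 4 held 2.32, 3.16, 7.24 and 2.38 CPM at 37 °C and 4.23, 7.10, 8.13 and 6.44 CPM at 39 °C. The third 37 °C library lay among the 39 °C libraries, and the log2 fold change of 0.83 (SE 0.26, adjusted p = 0.0105) became 1.36 without it, 0.61 without 37 °C replicate 1 (adjusted p = 0.0897), 0.69 without 37 °C replicate 4 (adjusted p = 0.0555) and 0.76 in DESeq2 (adjusted p = 0.138).

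**Figure D2:**
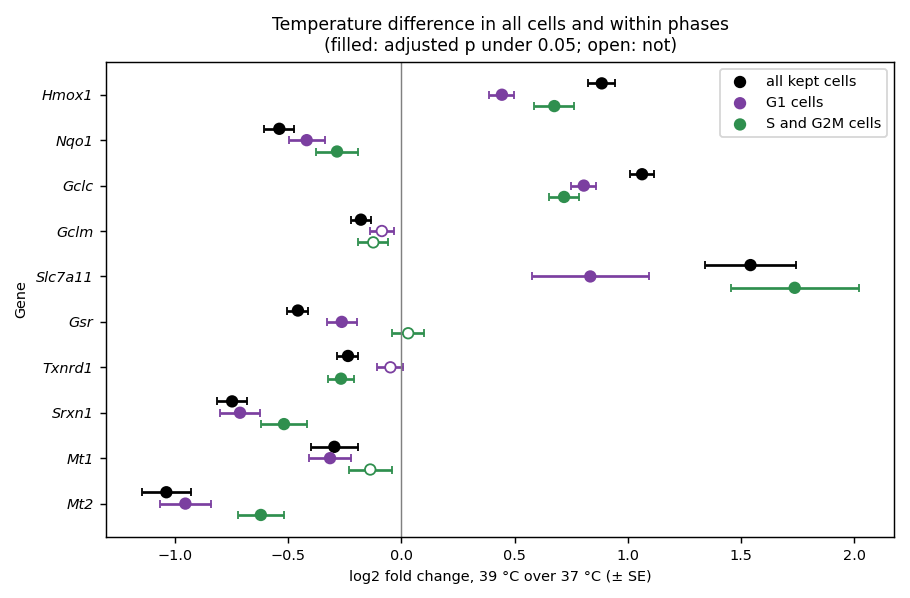
Log2 fold change between 39 °C and 37 °C (horizontal axis, with its SE as a bar) of each gene in all kept cells (black), G1 cells (purple) and S and G2M cells (green), from edgeR fits of 8 libraries; filled points had an adjusted p under 0.05. Hmox1, Gclc and Slc7a11 lie right of 0 and Nqo1, Srxn1 and Mt2 left of 0 in all 3 sets of cells, while Txnrd1 in G1 cells and Gsr in S and G2M cells sit at -0.05 and 0.03 with open points.

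Cells of 1 library were then compared by phase in a single fit of 16 sums, with the library as a term. In this fit edgeR gave all genes a single estimate of the spread, so that the spread of single genes did not enter. At 37 °C, 8 of the 10 genes differed between G1 and S and G2M cells (3 higher in G1, 5 lower), against 43.5% of 14745 genes (18.4% higher, 25.0% lower). At 39 °C 7 did (2 higher, 5 lower), against 40.3% (21.1% higher, 19.2% lower). Hmox1 was higher in G1 cells of 4 of 4 libraries at 37 °C (84.3 ± 4.08 against 53.6 ± 5.29 CPM, log2 difference 0.65, adjusted p = 1.92e-46) and of 4 of 4 at 39 °C (114 ± 5.55 against 86.0 ± 15.8 CPM, 0.44, adjusted p = 2.02e-19). Gclc was likewise higher in G1 cells of every library (0.40 at 37 °C, adjusted p = 6.44e-23, and 0.51 at 39 °C, adjusted p = 1.31e-36). Gsr was lower in G1 cells of every library, by a log2 difference of -0.42 at 37 °C (34.6 ± 2.30 against 46.4 ± 0.818 CPM, adjusted p = 5.42e-12) and of -0.70 at 39 °C (28.7 ± 1.33 against 47.1 ± 4.38 CPM, adjusted p = 5.50e-23). The genes that were higher at 39 °C and higher in G1 cells were thus Hmox1 and Gclc, and Slc7a11 joined them at 37 °C (log2 difference 0.97, adjusted p = 8.84e-06, but 0.54 with an adjusted p of 0.0938 without 37 °C replicate 3) while its log2 difference at 39 °C was 0.12 (adjusted p = 0.633).

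Mt2 and Nqo1 were lower in G1 cells of every library at both temperatures. For Mt2 the log2 difference was -0.27 at 37 °C (84.7 ± 11.4 against 102 ± 11.96 CPM, adjusted p = 8.92e-10) and -0.60 at 39 °C (43.9 ± 9.62 against 66.3 ± 14.3 CPM, adjusted p = 4.32e-24). For Nqo1 it was -0.24 (adjusted p = 4.17e-04, and 0.0621 with upper-quartile factors and 0.0736 in DESeq2) and -0.35 (adjusted p = 4.84e-05). Mt1 was lower in G1 cells of 4 of 4 libraries at 39 °C (-0.21, adjusted p = 1.86e-13), while at 37 °C its value was -0.04 (adjusted p = 0.196) and turned to between 0.00332 and 0.0651 with RLE factors, upper-quartile factors, library totals, DESeq2 or no cell filter. Txnrd1 was lower in G1 cells at 37 °C (-0.27, adjusted p = 4.16e-18) and had -0.02 at 39 °C (adjusted p = 0.642). Srxn1 passed at 39 °C (-0.31, adjusted p = 9.49e-04, but 0.0923 without 39 °C replicate 3 and 0.0644 without 39 °C replicate 4) and had -0.13 at 37 °C (adjusted p = 0.0732, and 0.0428 without 37 °C replicate 3). Gclm passed at 37 °C alone (-0.16, adjusted p = 4.99e-04, but 0.306 with upper-quartile factors, 0.0779 with library totals and 0.125 in DESeq2). At 39 °C Gclm had -0.11 (adjusted p = 0.0686), and it passed there with RLE factors (0.0376), library totals (0.00498) or no cell filter (0.00185) and without 39 °C replicate 1 (0.0484) or replicate 2 (0.0219).

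Whether the temperature difference itself differed between G1 cells and S and G2M cells was tested as the interaction of that fit, which passed for 6 of the 10 genes (1 higher, 5 lower), against 16.3% of 14745 genes (11.1% higher, 5.13% lower). It was -0.85 for Slc7a11 (SE 0.27, adjusted p = 0.0115), -0.34 for Mt2 (SE 0.07, adjusted p = 3.95e-05), -0.28 for Gsr (SE 0.09, adjusted p = 0.0176), -0.21 for Hmox1 (SE 0.07, adjusted p = 0.0104), -0.17 for Mt1 (SE 0.04, adjusted p = 6.30e-05) and 0.24 for Txnrd1 (SE 0.05, adjusted p = 2.44e-06). For Mt2 and Mt1 this means a larger fall in G1 cells, for Hmox1 and Slc7a11 a smaller rise in G1 cells, and for Txnrd1 a smaller fall there. In DESeq2 the adjusted p was 0.288 for Slc7a11, 0.0735 for Gsr and 0.0536 for Txnrd1, so that 3 of the 6 passed. Single libraries also decided some of these calls. That of Slc7a11 was lost without 37 °C replicate 2 (adjusted p = 0.0514), 37 °C replicate 3 (-0.42, adjusted p = 0.444) or 39 °C replicate 3 (adjusted p = 0.114), that of Hmox1 without 37 °C replicate 4 (0.0805) or 39 °C replicate 1 (0.123), and that of Gsr without 37 °C replicate 3 or 4 or 39 °C replicate 2 or 3 (0.0568 to 0.145). Scaling moved the median of all genes in this contrast from 0.06 with TMM factors to -0.06 with library totals, and the share of calls that were higher from 68.4% to 26.7%. The 6 values kept their signs under each of the other scalings, and Srxn1 passed with library totals (-0.30, adjusted p = 0.0263) and with no cell filter (-0.29, adjusted p = 0.0217), where Gclc passed as well (0.16, adjusted p = 0.0244).

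The genes that govern NRF2 were read next. Of 10 regulators tested, 6 rose, 3 fell and 1 did not pass, against 31.5% higher and 30.5% lower over all tested genes. Nfe2l2 itself rose from 224 ± 6.36 to 329 ± 17.1 CPM (SD, n = 4 each, log2 fold change 0.56, adjusted p = 8.53e-09). All 3 small MAF partners rose, Maff by 1.49 (from 7.77 to 21.7 CPM, adjusted p = 8.89e-13), Mafk by 0.96 (adjusted p = 3.08e-10) and Mafg by 0.68 (adjusted p = 1.05e-10) on the log2 scale. Bach1 rose by 0.28 (adjusted p = 7.27e-05), as did Sqstm1, the autophagy receptor p62 that can draw KEAP1 away, by 0.22 (adjusted p = 5.46e-04). The genes of the degradation complex all fell, Rbx1 with -0.41 (adjusted p = 1.02e-05), Cul3 with -0.25 (adjusted p = 3.11e-05) and Keap1 with -0.23 (adjusted p = 3.36e-04). Nfe2l1, which encodes a related factor, had 0.11 (adjusted p = 0.127, but 0.0255 without 37 °C replicate 2 and 0.0399 with the mitochondrial limit of 10%). In G1 cells, where 24.8% of all tested genes were higher and 22.4% lower, 4 of these genes rose (Maff 1.14, Mafk 0.85, Mafg 0.53 and Nfe2l2 0.36), Rbx1 (-0.36) and Cul3 (-0.19) fell, and Bach1, Sqstm1, Keap1 and Nfe2l1 did not pass (adjusted p from 0.103 to 0.531, although Keap1 reached 0.0481 with upper-quartile factors).

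Further enzymes of the same routes were counted in all kept cells, with the 62.0% of all genes that passed as the background. Counts in G1 cells are given beside them, where 47.1% of all tested genes passed. Of 18 other glutathione genes tested, 5 rose, 8 fell and 5 did not pass, with a median log2 fold change of -0.07 (in G1 cells 3 of 17 rose and 10 fell, median -0.25). Slc3a2, the partner chain of the cystine exchanger, rose with Slc7a11 (157 to 239 CPM, log2 fold change 0.61, adjusted p = 6.60e-10), and so did Gss, the second enzyme of glutathione synthesis (0.41, adjusted p = 2.84e-07), and the exporter gene Abcc1 (0.18, adjusted p = 0.00118, but 0.08 with an adjusted p of 0.208 in G1 cells). The glutathione transferase genes Gstm2 (-1.90, adjusted p = 6.19e-13) and Gsta4 (-1.09, adjusted p = 8.87e-11) and the peroxidase gene Gpx1 (-0.56, adjusted p = 3.22e-09) fell. Of 13 thioredoxin-system genes, 4 rose, 7 fell and 2 did not pass (median -0.29, and in G1 cells 3 rose and 7 fell, median -0.16). The peroxiredoxin genes Prdx4 (-0.87, adjusted p = 8.50e-12) and Prdx2 (-0.83, adjusted p = 2.41e-11) and thioredoxin itself, Txn1 (952 to 564 CPM, -0.75, adjusted p = 1.46e-08), fell as Srxn1 and Txnrd1 did. Sesn2 (0.68, adjusted p = 1.01e-09), Sesn1 (0.57, adjusted p = 5.42e-08) and Txnip, whose product binds and inhibits thioredoxin (0.61, adjusted p = 1.80e-06), rose.

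Of 6 genes that supply NADPH, the reductant of Gsr, Txnrd1 and Nqo1, 0 rose, 3 fell and 3 did not pass (median -0.21). Those that fell were Me1 (-0.54, adjusted p = 1.34e-09), G6pdx (-0.44, adjusted p = 4.83e-06) and Tkt (-0.35, adjusted p = 8.60e-06). In G1 cells 0 rose and 5 fell (median -0.22). The call of Tkt there was lost when some single libraries were left out (adjusted p up to 0.0725). Of 12 iron and haem genes, 5 rose, 4 fell and 3 did not pass (median -0.08, and in G1 cells 2 rose and 4 fell, median -0.17). The haem transporter gene Slc48a1 (162 to 255 CPM, 0.65, adjusted p = 1.16e-10), the ferritin heavy chain gene Fth1 (0.40, adjusted p = 2.00e-05) and Alas1, for the first enzyme of haem synthesis (0.31, adjusted p = 0.00158), rose with Hmox1. The transferrin receptor gene Tfrc (24.99 to 6.80 CPM, -1.88, adjusted p = 8.42e-14), Abcb6 (-0.95, adjusted p = 2.18e-09) and Blvra, for the reductase that follows haem oxygenase (-0.68, adjusted p = 5.81e-10), fell. In G1 cells Alas1 stood at -0.18 (adjusted p = 0.0701, and 0.0415 with RLE factors), opposite in sign to its value in all cells.

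Of 13 detoxification and dismutase genes, 8 rose, 4 fell and 1 did not pass (median 0.17, and in G1 cells 6 rose and 4 fell, median 0.19). Aldh3a1, an aldehyde dehydrogenase gene, rose from 52.9 ± 2.97 to 175 ± 17.5 CPM (SD, n = 4 each, 1.73, adjusted p = 3.33e-14), and Ephx1, for the microsomal epoxide hydrolase (0.95, adjusted p = 1.47e-11), and Osgin1 (0.90, adjusted p = 2.05e-09) rose too. Nqo2, the sister gene of Nqo1, fell with it (-0.77, adjusted p = 6.98e-10), as did the superoxide dismutase genes Sod2 (-0.48, adjusted p = 4.06e-08) and Sod1 (-0.33, adjusted p = 5.85e-06).

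For the metallothioneins, zinc and copper handling and glucocorticoid response were read alongside. Of 18 zinc and copper genes, 8 rose, 3 fell and 7 did not pass (median 0.19), so that 11 of 18 passed, near the 62.0% of all tested genes. In G1 cells 8 of 15 tested rose and 2 fell (median 0.29). The zinc importer genes Slc39a14 (24.4 to 42.5 CPM, 0.80, adjusted p = 4.22e-10) and Slc39a6 (0.61, adjusted p = 1.15e-09) and the copper exporter gene Atp7a (0.48, adjusted p = 8.03e-08) rose. The copper importer gene Slc31a1 (-0.39, adjusted p = 4.84e-06), Slc39a1 (-0.36, adjusted p = 9.40e-04) and Slc30a4 (-0.22, adjusted p = 0.00188, but -0.10 with an adjusted p of 0.348 in G1 cells) fell. The call of Slc39a1 in G1 cells was lost when some single libraries were left out (adjusted p up to 0.191). Of 8 glucocorticoid-response genes tested, 3 rose (Klf9 0.73, adjusted p = 3.48e-10, Nr3c1 0.56, adjusted p = 9.88e-10, and Cebpd 0.50, adjusted p = 9.59e-07). A further 3 fell, among them Fkbp5 (13.3 to 5.77 CPM, -1.20, adjusted p = 3.80e-11) and Sgk1 (-0.38, adjusted p = 1.31e-05). The other 2 did not pass, so that 6 of 8 passed against the same 62.0%. In G1 cells 3 rose and 3 fell as well. The call of Cebpd there was lost when some single libraries were left out (adjusted p up to 0.156).

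**Figure D3:**
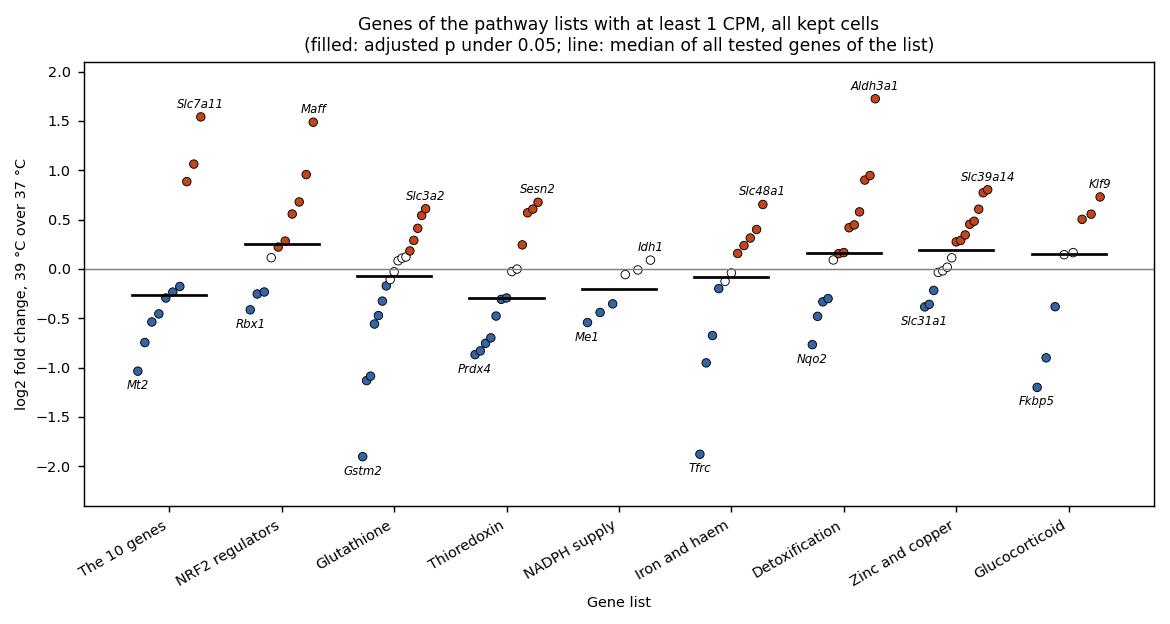
Log2 fold change between 39 °C and 37 °C (vertical axis) of the 10 genes and of the genes of 8 further lists, all kept cells, showing genes with at least 1 CPM in the higher group; red points rose and blue points fell at an adjusted p under 0.05, open points did not pass, and the line is the median of all tested genes of the list. Every list but that of NADPH supply holds genes that rose and genes that fell, and the medians run from -0.29 (thioredoxin) to 0.25 (NRF2 regulators).

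Across cells, each cell was thinned to 4000 UMIs so that cells of unlike depth could be compared, which left out 385 cells at 37 °C and 981 at 39 °C. The cultures held 1 line and no cell type that should lack these genes, so that no background share could be measured. At this depth Mt1 was found in 70.3% ± 4.97 of cells at 37 °C and 68.4% ± 4.18 at 39 °C (SD over 4 libraries each), and Mt2 in 28.2% ± 2.64 and 15.9% ± 2.49. Hmox1 was found in 19.9% ± 1.52 and 29.4% ± 1.77 of cells and Gclc in 25.2% ± 2.33 and 43.1% ± 0.613, with no overlap of libraries for either. Slc7a11 was found in 0.690% ± 0.191 and 2.03% ± 0.416 of cells. Without thinning the shares were 41.7% ± 6.31 and 50.5% ± 10.5 for Hmox1, 51.6% ± 5.83 and 66.8% ± 10.5 for Gclc, 52.6% ± 7.18 and 31.5% ± 10.6 for Mt2, and 1.99% ± 0.693 and 3.87% ± 0.676 for Slc7a11. Libraries of both temperatures then overlapped for Hmox1, Gclc and Mt2 and did not for Slc7a11. Among the 10 genes, the mean share was higher at 39 °C for 3, the same 3 whose CPM was higher. Both measures come from the same counts, so the shared direction is no separate support.

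**Figure D4:**
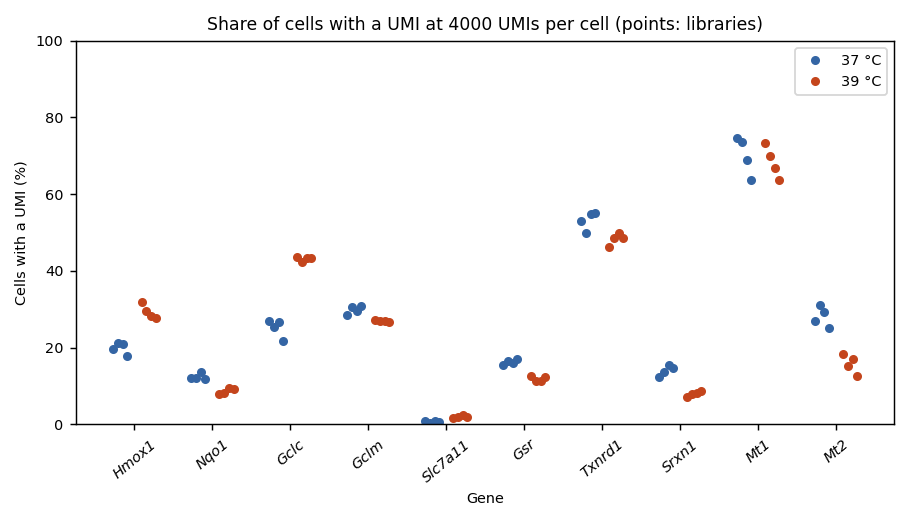
Share of cells with at least 1 UMI of each gene (vertical axis, percent, from 0 to 100) after thinning every cell to 4000 UMIs; each point is a library at 37 °C (blue) or 39 °C (red). The red points lie above the blue for Hmox1, Gclc and Slc7a11, below for Nqo1, Srxn1, Gsr, Mt2 and Gclm, and among them for Mt1. Those of Txnrd1 overlap narrowly, with the highest at 39 °C at 49.83% and the lowest at 37 °C at 49.81%.

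The counts of Hmox1 were spread more unevenly over cells than an even draw of molecules would give, with a variance over mean of 1.59 ± 0.183 at 37 °C and 2.03 ± 0.211 at 39 °C (an even draw gives 1). The 10% of cells with the most Hmox1 held 63.4% ± 1.85 and 58.0% ± 1.55 of its UMIs. For Gsr, whose variance over mean is given below, this share was 65.0% ± 2.32 at 37 °C and 85.5% ± 4.43 at 39 °C. The share also depends on how few cells hold a UMI of the gene. Its value under an even draw was not computed, so it cannot show uneven spread by itself. For Mt1 the variance over mean was 2.31 ± 0.199 and 1.83 ± 0.393, and for Mt2 1.40 ± 0.0677 and 1.25 ± 0.0176. Gsr lay at 0.991 ± 0.0101 and 1.07 ± 0.0218, close to an even draw. The variance over mean moves with the level of a gene, and it was read within each gene only.

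How far the 10 genes went together from cell to cell was described by Pearson's r of log2(thinned count + 1) within each library, averaged over the 8 libraries. Mt1 and Mt2 gave the highest value of the 45 pairs, a mean r of 0.25 (0.158 to 0.331 over libraries, 0.31 at 37 °C and 0.20 at 39 °C), and each was the other's first-ranked gene among 4578 genes seen in at least 10% of thinned cells of every library. The value was 0.23 in G1 cells alone and 0.17 with cells thinned to 2000 UMIs. All other pairs lay at 0.10 or under, led by Gclc with Txnrd1 (0.10), Hmox1 with Txnrd1 (0.09) and Gclc with Slc7a11 (0.09). Mt1 and Mt2 stood near 0 with Srxn1 (0.002 and 0.005), and Hmox1 gave 0.09 with Mt1 but 0.005 with Mt2. Values this small in sparse counts are given as a description, and the genes of a cell share its library and its phase.

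**Figure D5:**
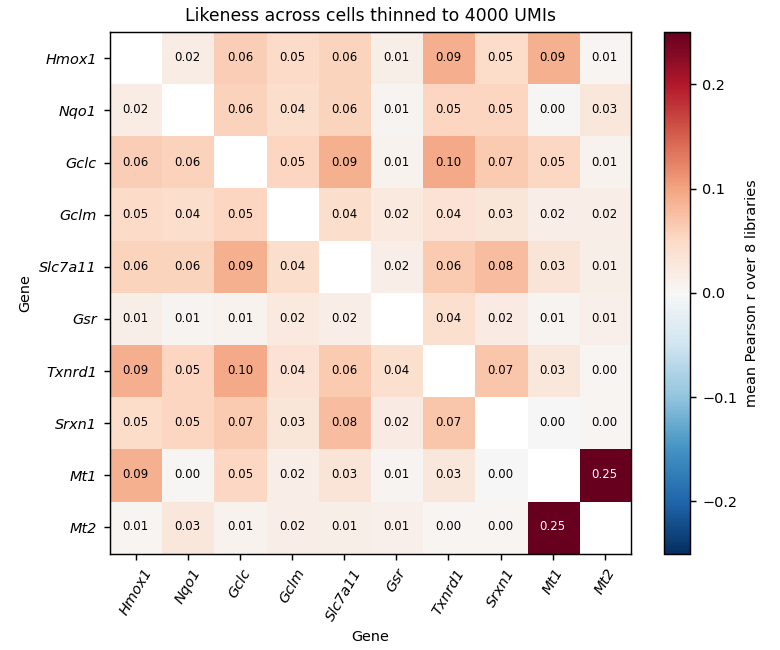
Mean Pearson r over the 8 libraries for each pair of the 10 genes, across cells thinned to 4000 UMIs, shown as colour (red positive, blue negative) and as the number in each square. Mt1 with Mt2 stands out at 0.25, and every other pair is at 0.10 or under.

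By the same measure the genes nearest to Hmox1 were Fth1 (mean r 0.18), Sox4 (0.15) and Man2b1 (0.15), and those nearest to Gclc were Ftl1 (0.18), Notch1 (0.15) and Pltp (0.14). Nqo1 had Fth1 (0.12), Aldh3a1 (0.09) and Gstm1 (0.08), Gclm had Fth1 (0.10), Gstm1 (0.06) and Esd (0.06), and Srxn1 had Ftl1 (0.11), Ly6a (0.09) and Fth1 (0.08). A ferritin chain gene, Fth1 or Ftl1, was thus first for 5 of the 8 NRF2 targets. How often a ferritin chain gene came first for other genes was not counted, so the number has no background. With cells thinned to 2000 UMIs, Ftl1 was first for Mt1 as well (mean r 0.11), but Mt2 was not ranked there. Mt2 was seen in under 10% of cells of some libraries at that depth, and its mean r with Mt1 was higher (0.17). Between the temperatures the light chain gene Ftl1 fell (4614 to 4017 CPM, log2 fold change -0.20, adjusted p = 0.01002), while Fth1 rose. Slc7a11 had Gclc (0.09), Hmga2 (0.08) and Sox4 (0.07), Txnrd1 had Vcan (0.11), Tubb4b (0.10) and Nfyb (0.10), and Gsr had Dek (0.06), Rpl41 (0.05) and Ranbp1 (0.05). After each other, Mt1 was nearest to Hmga2 (0.17) and Ftl1 (0.17), and Mt2 to Spp1 (0.11) and Hmga2 (0.10).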

How the data were processed

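Per the labels and the methods, trypsinized SN4741 cells were captured with the Chromium 3' V3 kit, reads were aligned to mm10 with Cell Ranger (3.0.1 in the submitters' notes), and the authors deposited 1 matrix of UMI counts per library, as whole numbers without normalization. Cells with over 15% mitochondrial UMIs, under 200 or over 6000 genes were left out, the limits of the study. No doublet caller was run, and the upper limit on genes was the only guard against doublets. Phases were assigned with Seurat 5.3.0 (CellCycleScoring, its lists turned to mouse by letter case), and none of the 10 genes is in those lists.

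Counts were summed per library, or per library and phase class, and genes averaging 1 count or more over the libraries were tested with edgeR 4.0.16 (R 4.3.3; TMM factors, glmQLFit, glmQLFTest), with temperature alone, or with library, phase and their interaction with temperature in the fit of 16 sums. P-values were adjusted by Benjamini-Hochberg over all tested genes, and a gene rose or fell at an adjusted p under 0.05. SE is the fold change over the square root of F. Precision is limited by the pooled depth, which was 39 to 231 UMIs per library for Slc7a11, the rarest of the 10 genes. For Mt1, the most abundant, it was 7427 to 14216. Labels do not say whether replicates were separate cultures, so p-values measure the spread between these libraries, which may be technical.

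At most 5 barcodes were shared by a pair of libraries, and no library was a copy of another (chi-square over degrees of freedom, 2.85 to 21.4 between libraries of the same temperature). The tests were run on counts simulated with the same spread for every gene and 200 genes changed by a log2 fold change of 1. They recovered from 161 (interaction) to 192 (temperature, all kept cells) of these, with 5 to 12 false calls. Smaller changes and spreads that differ between genes were not simulated. Gene positions come from GENCODE M21 on GRCm38 (31011 of 31053 identifiers matched), the assembly behind mm10, and promoter windows from RefSeq.

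The 10 genes and the lists (NRF2 regulators, glutathione, thioredoxin, NADPH supply, iron and haem, detoxification, zinc and copper, glucocorticoid, and markers of 7 cell types) were chosen with earlier results of these data known. Named were all 10 genes, all regulators, up to 3 rises and 3 falls per list among genes that passed with at least 10 CPM, and the 3 genes nearest to each of the 10 across cells. Markers named beyond this were chosen after their values were seen. Alternatives were other scalings (RLE, upper quartile, totals), other filters on genes (filterByExpr, none) and cells (none, 10% mitochondrial), DESeq2 1.42.0, a block on the replicate number, each library left out, and other thinned depths.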

Additional observations from a re-analysis of the deposited data

Results flagged for a closer look

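In G1 cells at 37 °C, Slc7a11 stood at 7.24 CPM in replicate 3 and at 2.32 to 3.16 CPM in the other 3 libraries. The gap was just past Dixon's 95% limit for 4 samples, 1 such case in 60 groups examined, where chance gives about 1 in 20.

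The temperature difference in G1 cells, less that in S and G2M cells, passed the interaction test (edgeR, log2 scale) for 6 genes, against 16.3% of 14745 genes. The values were -0.85 for Slc7a11 (adjusted p = 0.0115), 0.24 for Txnrd1 (adjusted p = 2.44e-06), -0.28 for Gsr (adjusted p = 0.0176), -0.21 for Hmox1 (adjusted p = 0.0104), -0.34 for Mt2 (adjusted p = 3.95e-05) and -0.17 for Mt1 (adjusted p = 6.30e-05). In DESeq2 3 of the 6 passed, and the calls of Slc7a11, Hmox1 and Gsr depended on single libraries, as given above.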

How the results depend on the processing

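Of the 10 genes, Hmox1, Gclc, Nqo1, Srxn1, Gsr, Mt2, Slc7a11, Gclm and Txnrd1 kept their direction and their call in all kept cells under every alternative, and Mt1 lost its call as given above. Counts of the 10 genes that moved were, for G1 against cycling cells at 37 °C, 3 lower with upper-quartile factors and in DESeq2 (5 before), and for the interaction 0 higher and 3 lower in DESeq2 (1 and 5 before) and 2 higher with no cell filter. Leaving out 1 library gave 3 to 5 lower for the interaction. Counts over all genes that moved were, at 37 °C, 4172 higher with upper-quartile factors (2719 before) and 2350 lower in DESeq2 (3690 before), and, for the interaction (1641 higher, 757 lower before), 1041 higher with RLE factors, 749 higher and 1371 lower with upper-quartile factors, 609 and 1673 with totals, and 528 and 494 in DESeq2. The share of higher calls moved from 42.4% to 62.3% with upper-quartile factors at 37 °C, and from 46.4% to 59.0% with totals in S and G2M cells. The cause was not tested.

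Signs turned for values close to 0. With 1 library left out, Txnrd1 in G1 cells ran from -0.0860 to 0.00182 (the latter without 37 °C replicate 4), and Gsr in S and G2M cells from -0.0175 to 0.0966 (below 0 without 37 °C replicate 1, 39 °C replicate 1 or 39 °C replicate 2). Mt1 at 37 °C by phase became 0.00403 (RLE), 0.0651 (upper quartile, adjusted p = 0.0160), 0.0333 (totals), 0.00510 (DESeq2) and 0.00332 (no cell filter). At 39 °C by phase, Slc7a11 became -0.26 with no cell filter and Txnrd1 ran from -0.0427 to 0.00581 (the latter without 39 °C replicate 1). The interaction of Gclm became -0.00412 (RLE), -0.0417 (upper quartile), -0.0690 (totals) and -0.00474 (no cell filter), and that of Gclc -0.0134 (totals). The mean r of Mt1 and Mt2 was 0.17 at 2000 UMIs per cell.

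Same-numbered libraries of both temperatures deviated together with r of -0.12, -0.12, -0.10 and 0.29 over 8293 genes, and only replicate 4 matched its own number best. With 4 libraries per temperature, these values cannot settle whether a shared number marks a shared batch. With the replicate number as a block, 4880 genes were higher and 4737 lower at 39 °C (4976 and 4827 without it), 3 and 7 of the 10 genes passed as before, and Mt1 had -0.30 (adjusted p = 1.24e-04). Depth limits Slc7a11 most.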
